A study of Mus musculus with 6 samples.

Results

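The genes described here encode proteins of synaptic vesicles and of the SNARE machinery that fuses vesicles with membranes, at the synapse and elsewhere. They were chosen by gene name from a table of protein-coding genes. The choice took the numbered synaptotagmins, VAMPs, syntaxins and complexins, the syntaxin-binding proteins, the SV2 proteins and the synapsins. It added 15 single genes: Syp, Synpr, Syngr1, Syngr3, Snap25, Snap91, Nsf, Napa, Napb, Bsn, Pclo, Unc13a, Rims1, Slc17a6 and Slc17a7. The table held 21958 genes, of which 70 were members of this set. Of the 70 members, 64 were expressed highly enough to be tested, among 12255 genes tested in all.

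A synaptic vesicle is loaded with transmitter by transporters in its membrane, docks at the active zone and fuses when calcium enters the terminal. Fusion is driven by a VAMP on the vesicle that zips up with a syntaxin and SNAP-25 on the plasma membrane, while synaptotagmins sense calcium and complexins clamp and promote the final step. Syntaxin-binding proteins govern when syntaxin is free to take part, and the ATPase NSF with its SNAP adaptors takes the spent complexes apart. Most of these proteins work in axon terminals, and a synaptoneurosome, a pinched-off particle made by filtering brain homogenate, keeps both the presynaptic and the postsynaptic side of the synapse.

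RNA was sequenced from 6 libraries of synaptoneurosomes from FVB mice aged 6 to 8 weeks, prepared from the hippocampus together with adjoining cortex. The 3 libraries called total RNA here held, by their labels, the RNA of unstimulated synaptoneurosomes. The methods describe the total fraction both as RNA extracted from an aliquot of synaptoneurosomes and as lysate supernatant kept back before the gradient, so which of these was sequenced is uncertain. The 3 libraries called polyribosomes held RNA from the light and heavy polyribosomal fractions of a sucrose gradient. Those synaptoneurosomes had been exposed to 50 µM NMDA with 10 µM glutamate for 30 s, after which 120 µM APV, which blocks the NMDA receptor, was added for an incubation of 20 min. No genetic change was made in either group, and each preparation pooled several mice. By the methods, unstimulated controls were kept on ice with cycloheximide, an inhibitor of protein synthesis, whereas stimulated samples were warmed and incubated. Stimulation, this handling and fraction changed together between the groups, so that they cannot be told apart. The libraries carried 5294482 to 7361580 counts on polyribosomes and 1044955 to 3738022 in total RNA. Values are CPM, counts scaled to the library's effective size. This size is the library's total over the genes tested, multiplied by its TMM factor. Differences are log2 ratios of polyribosomes to total RNA after the same TMM scaling. They were tested with edgeR's quasi-likelihood test at a Benjamini-Hochberg adjusted p of 0.01. Since these are bulk samples, fewer particles of a kind and less of an RNA per particle cannot be told apart.

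Vesicle and SNARE genes took up a similar share of the counts in both fractions. The members together made up 1.75, 1.95 and 1.82% of the counts in polyribosome replicates 1 to 3 and 1.82, 1.93 and 1.73% in total RNA replicates 1 to 3. These ranges overlapped. The median log2 difference over the 64 members tested was -0.01, with 0.03, -0.02 and 0.08 in the pairs of same-numbered libraries, and the median over all genes tested was 0.00. A positive difference was found for 31 of the 64 members, which is 48.4%, against 50.1% of all genes tested. Single members spread from -1.50 for Stx3 to 0.70 for Syngr3.

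In the comparison of the groups, 3 members were lower on polyribosomes and 0 were higher. The 3 lower members were Stxbp5l, Stxbp5 and Stx3, and they are 4.69% of the members tested. Among all genes tested, 2.36% were called lower and 0.710% higher. At an unadjusted p of 0.05, 7 members were higher and 8 lower, where the background over all genes was 15.4% and 17.1%. DESeq2 called 2 of the 64 members higher, Syngr3 and Syp, and 2 lower, Stxbp5l and Stxbp5. Of the 12255 genes tested by edgeR, DESeq2 called 321 higher and 372 lower. It gave no adjusted p for Stx3. Without the expression filter edgeR called 1 member higher, Syngr3, against a background of 2.84%, and 3 lower against 3.38%. The plot of the differences of 62 members places these genes among the others of their role.

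**Figure D1:**
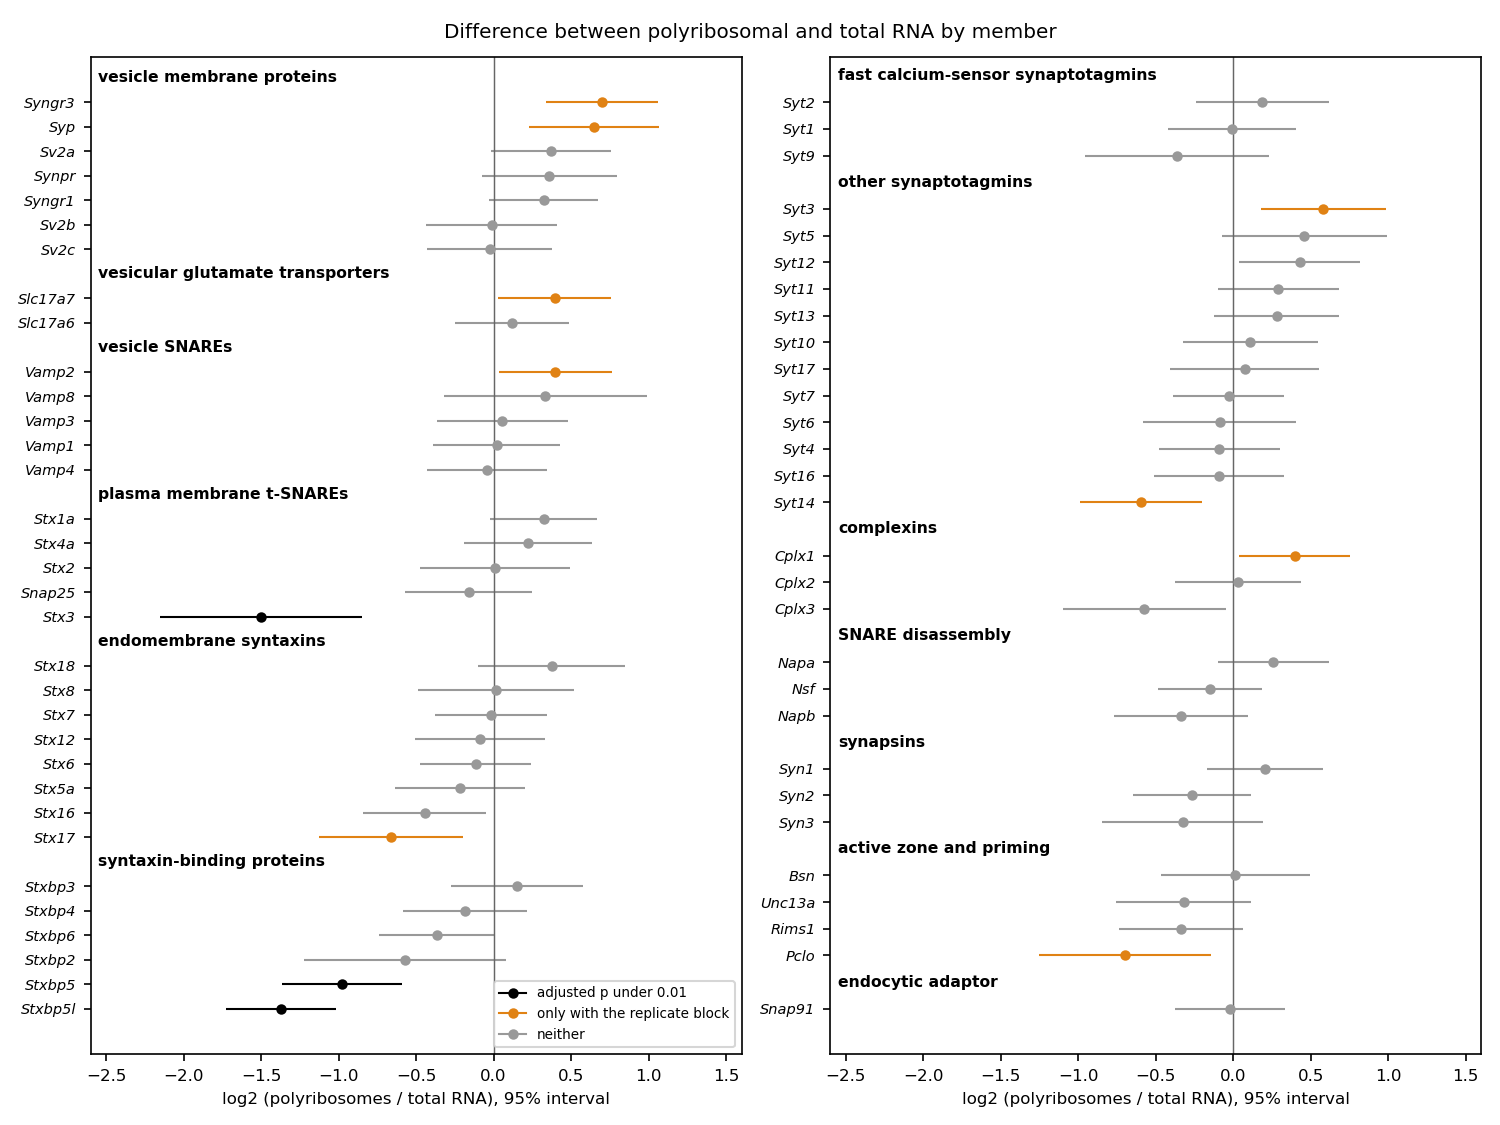
Log2 difference between polyribosomes and total RNA (x axis) for 62 of the 64 members tested, grouped by role, with the 95% interval of edgeR's fit. Black marks the 3 members past an adjusted p of 0.01, orange the 9 more that passed it once the replicate number entered the fit, and grey the rest. Stx3, Stxbp5l and Stxbp5 lie farthest to the left, while Syngr3 and Syp lie farthest to the right.

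Libraries with the same replicate number share a prefix in the table's column names and were treated as pairs. When the replicate number was added to the fit as a block, 6 members were higher (Syngr3, Syp, Syt3, Vamp2, Cplx1 and Slc17a7) and 6 lower (Stx3, Stxbp5l, Stxbp5, Pclo, Stx17 and Syt14). Each direction made up 9.38% of the members tested. The background rose to 11.8% of all genes higher and 13.2% lower in that fit, so the members' shares were below those of all genes.

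The sequence around the start codon, where the ribosome begins translation, is shown for the 3 lower genes and for 3 of the genes that were higher with the block. Each line gives 12 bases before the start codon, the start codon ATG in capitals, and the bases after it, from the principal transcript in the GRCm38 annotation.
Stxbp5l: gaagtgtttaaaATGaagaagt
Stxbp5: ttgggcgagaccATGaggaaat
Stx3: acctgggccaggATGaaggacc
Syngr3: aaagtgcccgcaATGgagggag
Syp: cccgcattgctgATGctgctgc
Vamp2: gctacccccgccATGtcggcta
A purine 3 bases before the start codon and a G directly after it are the best known features of a strong start site. Of the 62 members with a usable sequence, 59 had the purine, or 95.2%, against 86.8% of all genes tested. The G was present in 31 of them, or 50.0%, against 52.7%. Of the 6 members that were higher with the block, 5 had the purine and 3 the G, and of the 6 lower ones, 6 and 2. Syp was the 1 member among these 12 without the purine.

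Syntaxin-binding proteins held 2 of the 3 genes called lower. Stxbp5l and Stxbp5 encode tomosyns, proteins with a SNARE-like end that bind syntaxin and SNAP-25 in place of VAMP and hold back fusion. Stxbp5l (GRCm38, chr16:37114942-37384962, minus strand) was at 29.4, 31.0 and 34.0 CPM in polyribosome replicates 1 to 3 and at 75.2, 81.4 and 89.2 CPM in total RNA replicates 1 to 3. Every polyribosome library was far below every total RNA library. The log2 difference was -1.37 ± 0.166 (SE) with an adjusted p of 0.000681 by edgeR, a ratio of 0.386.

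Stxbp5 (chr10:9755547-9901079, minus strand) was at 48.3, 50.9 and 35.6 CPM on polyribosomes and at 87.4, 80.7 and 101 CPM in total RNA. The groups did not overlap here either. The log2 difference was -0.98 ± 0.181 (SE), with an adjusted p of 0.00518 by edgeR. Stxbp5l passed the threshold whichever single library was left out, whereas Stxbp5 did so only without polyribosome replicate 3, and its adjusted p ranged up to 0.0256 without one of the other libraries.

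Stxbp2, Stxbp3, Stxbp4 and Stxbp6 did not pass the test. Their differences lay between -0.57 and 0.15, and Stxbp6, at 22.6 to 24.3 CPM on polyribosomes and 27.8 to 32.5 CPM in total RNA, was the 1 of these 4 whose groups did not overlap. The median over the 7 genes was -0.37, and 6 of 7 were below 0.

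Plasma membrane SNAREs included the lowest value of the whole set. Stx3 (chr19:11775119-11819403, minus strand), a syntaxin of apical membranes, ribbon synapses and dendrites, had 17, 23 and 18 counts on polyribosomes, or 2.30, 3.46 and 3.71 CPM, and 31, 25 and 13 counts in total RNA, or 7.70, 8.37 and 12.5 CPM. The polyribosome libraries were lower in every case although they were the deeper ones. The log2 difference was -1.50 ± 0.306 (SE), with an adjusted p of 0.00832 by edgeR. These counts were few, and the call was kept only without polyribosome replicate 3. The adjusted p rose to between 0.0165 and 0.0400 when another single library was left out.

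Snap25 and Stx1a, which pair with the VAMP at the plasma membrane, showed small differences that did not pass. Snap25 was at 310, 417 and 513 CPM on polyribosomes and at 441, 477 and 467 CPM in total RNA, so that 1 polyribosome library was above and 2 below the total RNA libraries. Its difference was -0.16, with an interval from -0.57 to 0.25. Stx1a was at 128 to 150 CPM on polyribosomes and at 102 to 123 CPM in total RNA, with a difference of 0.32 and an interval from -0.02 to 0.67. The annotated spans of some members overlap those of other genes, such as Syngr1 with Rpl3, Unc13a with Colgalt1 and Syt3 with 1700008O03Rik, and no source used here says if reads were counted by strand, so their values are uncertain.

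Syntaxins of the endosomes, Golgi and endoplasmic reticulum were closer together. None of the 8 passed the test without the block, and 6 of 8 differences were below 0. Stx17, a syntaxin of autophagosomes, was at 15.6, 16.3 and 10.7 CPM on polyribosomes and at 26.6, 20.8 and 18.2 CPM in total RNA. All 3 polyribosome libraries were below all 3 of total RNA. Its difference was -0.66 ± 0.217 (SE), with an adjusted p of 0.0525 by edgeR, and with the block -0.61 at an adjusted p of 0.00304. Stx12, the most abundant of the 8 per length, was at 51.8, 49.3 and 43.9 CPM on polyribosomes and at 48.9, 65.0 and 36.4 CPM in total RNA, with a difference of -0.09, from -0.51 to 0.33.

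Vesicle membrane proteins contained the members at the upper end. Synaptophysin (Syp, chrX:7638471-7653256, plus strand), a tetraspan protein and the usual marker of synaptic vesicles, was at 1548, 1804 and 2395 CPM on polyribosomes and at 1097, 1279 and 1296 CPM in total RNA. Each polyribosome library was above all total RNA libraries. The difference was 0.65 ± 0.196 (SE), and its adjusted p by edgeR was 0.0388 without the block and 3.96e-05 with it.

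Syngr3, a synaptogyrin of the same tetraspan family (chr17:24685092-24689955, minus strand), was at 211, 220 and 265 CPM on polyribosomes and at 135, 156 and 136 CPM in total RNA, again without overlap. Its difference was 0.70 ± 0.168 (SE), a ratio of 1.62. The adjusted p by edgeR was 0.0166 without the block, 6.19e-06 with it and 0.00169 by DESeq2. The related Syngr1 was at 733 to 862 CPM against 607 to 652 CPM, and Sv2a, which is the target of the drug levetiracetam, at 717 to 891 CPM against 504 to 677 CPM. Both had groups that did not overlap and differences of 0.32 and 0.37 that did not pass. Sv2b and Sv2c stood at -0.01 and -0.02. The 7 vesicle membrane genes had a median of 0.36, with 0.10, 0.40 and 0.65 in pairs 1 to 3. Of the 7, 5 were above 0, and 4 had groups that did not overlap, all higher. Among all genes tested, 50.1% were above 0 and 17.4% had every polyribosome library above every total RNA library.

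Of the transporters that fill vesicles with glutamate, Slc17a7 (VGLUT1), the main form in cortex and hippocampus, was at 1588, 1755 and 1590 CPM on polyribosomes and at 1247, 1362 and 1143 CPM in total RNA. The groups were separate. Its difference was 0.39 ± 0.170 (SE), with an adjusted p by edgeR of 0.124 without the block and 0.00865 with it. Slc17a6 (VGLUT2) differed by 0.12, from -0.25 to 0.48.

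Among the vesicle SNAREs, Vamp2 (synaptobrevin-2), the VAMP of fast release, was at 417, 373 and 456 CPM on polyribosomes and at 303, 357 and 282 CPM in total RNA. The lowest polyribosome library was just above the highest of total RNA. Its difference was 0.40 ± 0.171 (SE), with an adjusted p by edgeR of 0.121 without the block and 0.00903 with it. Vamp1, Vamp3, Vamp4 and Vamp8 had differences from -0.04 to 0.33, and for these 4 the groups overlapped.

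**Figure D2:**
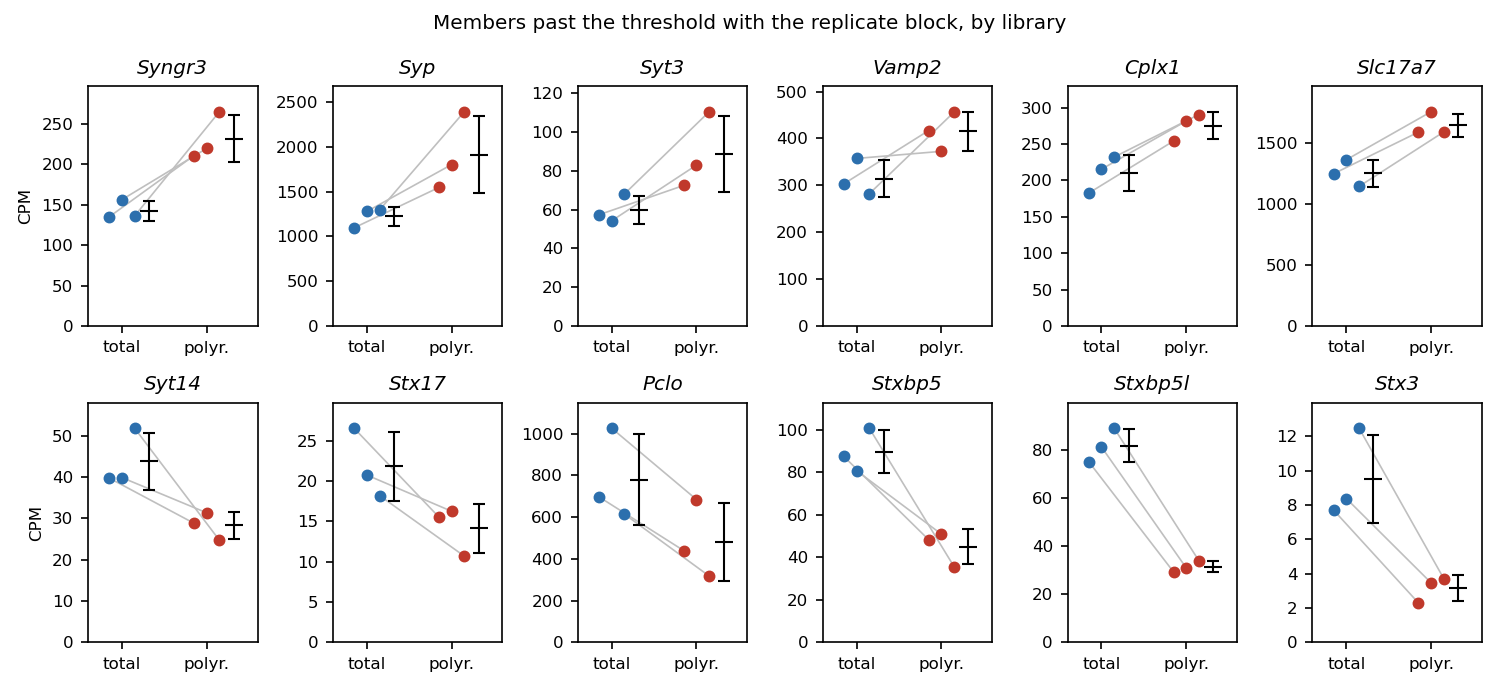
CPM (y axis, starting at 0) in each of the 3 total RNA libraries (blue) and 3 polyribosome libraries (red) for the 12 members past an adjusted p of 0.01 with the replicate block. Grey lines join libraries of the same number, and black bars give the mean ± SD of 3 libraries. The fit that chose these 12 genes favours pairs that move alike, and in each gene every pair moved the same way. Pclo is the 1 gene whose groups overlapped.

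Synaptotagmins, the calcium sensors and their relatives, went in both directions. Syt1, the sensor for fast release, was at 1732, 2275 and 1693 CPM on polyribosomes and at 2001, 2141 and 1590 CPM in total RNA. The groups overlapped almost completely, and the difference was -0.01, from -0.42 to 0.40. Syt2 differed by 0.19 and Syt9 by -0.37, and neither passed.

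Syt3, a high-affinity sensor that has been placed on postsynaptic membranes, was at 72.5, 83.0 and 111 CPM on polyribosomes and at 57.4, 54.3 and 68.1 CPM in total RNA. Its difference was 0.58 ± 0.190 (SE), with an adjusted p by edgeR of 0.0509 without the block and 0.000555 with it. Syt14, which lacks the calcium-binding residues, was at 28.8, 31.3 and 24.7 CPM against 39.7, 39.9 and 51.8 CPM. Both genes had groups that did not overlap, in opposite directions. For Syt14 the difference was -0.59 ± 0.185 (SE), with an adjusted p by edgeR of 0.0430 without the block and 0.00129 with it. Syt11, the most abundant of the other synaptotagmins per length, was at 1202 to 1708 CPM on polyribosomes and at 1118 to 1284 CPM in total RNA, with a difference of 0.29 that did not pass.

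No complexin passed the test without the block. Cplx1 was at 254, 282 and 291 CPM on polyribosomes and at 183, 215 and 232 CPM in total RNA, without overlap, and its difference was 0.40 ± 0.167 (SE). The adjusted p by edgeR was 0.116 without the block and 0.00716 with it. Cplx2, which was more abundant per length, was at 1099 to 1257 CPM against 917 to 1413 CPM, with a difference of 0.03, from -0.38 to 0.43. Cplx3, a complexin of ribbon synapses and of deep cortical cells, was at 5.56 to 7.23 CPM against 9.04 to 9.59 CPM, and its difference of -0.57 did not pass.

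Genes of the active zone lay below 0 or near it. Pclo encodes piccolo, a very large scaffold protein (chr5:14514918-14863459, plus strand), and was at 440, 685 and 318 CPM on polyribosomes and at 697, 1026 and 615 CPM in total RNA. The groups overlapped because replicate 2 was high in both fractions, but each polyribosome library was below its partner. The difference was -0.70 ± 0.260 (SE), with an adjusted p by edgeR of 0.0778 without the block and 1.21e-06 with it. Its relative Bsn (bassoon) was at 1214, 1225 and 1705 CPM against 995, 1305 and 1812 CPM, and its difference was 0.01, from -0.47 to 0.49. Rims1, which tethers calcium channels at the active zone, was the most abundant of these genes per length in total RNA. It was at 630, 599 and 412 CPM against 665, 707 and 706 CPM, and its difference of -0.34 did not pass. Unc13a, which primes vesicles, differed by -0.32 and did not pass either.

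Differences of the remaining genes did not pass with or without the block. Nsf was at 263, 261 and 271 CPM on polyribosomes and at 312, 283 and 288 CPM in total RNA, with a difference of -0.15, from -0.49 to 0.18. Its adaptors Napa and Napb differed by 0.26 and -0.34. Among the synapsins, which tie vesicles to one another, Syn1 was at 208, 216 and 286 CPM against 190, 219 and 207 CPM, and the differences of Syn1, Syn2 and Syn3 were 0.20, -0.27 and -0.33. Snap91, an adaptor for clathrin-mediated retrieval, was at 251, 243 and 227 CPM against 271, 249 and 208 CPM, with a difference of -0.02.

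Of the 64 members tested, 11 had all polyribosome libraries above all total RNA libraries and 10 had all of them below. These are 17.2% and 15.6% of the members, beside 17.4% and 18.9% of all genes tested. The 6 members not tested were Cplx4, Stx11, Stx19, Syt15, Vamp5 and Syt8. Vamp5 had 10, 10 and 11 counts on polyribosomes and 3, 0 and 0 in total RNA, and Syt8 had 0 counts in every library. A count of 0 allows up to 3 counts, for counting error only. Scaled to the library's total without the TMM factor, 3 counts are 0.408 CPM in the deepest library and 2.87 CPM in the shallowest.

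Per kilobase of exonic length, Syp, Slc17a7 and Syt1 had the highest levels of the members in both fractions. In total RNA the most abundant were Syp at 472 ± 42.6, Slc17a7 at 418 ± 36.6, Syt1 at 396 ± 59.3, Cplx2 at 236 ± 50.3 and Syt11 at 232 ± 16.1 CPM per kb (mean ± SD, n = 3). On polyribosomes Syp was at 739 ± 168, Slc17a7 at 550 ± 32.1 and Syt1 at 394 ± 67.4 CPM per kb. The spreads of Syp, Slc17a7 and Syt1 touched in total RNA, as did those of Cplx2 and Syt11, so these neighbours did not differ beyond their spread. At the low end were Stx8, Vamp8 and Stx3 at 1.5, 1.9 and 2.1 CPM per kb in total RNA. Stxbp5l fell from rank 32 in total RNA to rank 46 on polyribosomes. The scatter of levels per length shows the members along the diagonal over this whole range.

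**Figure D3:**
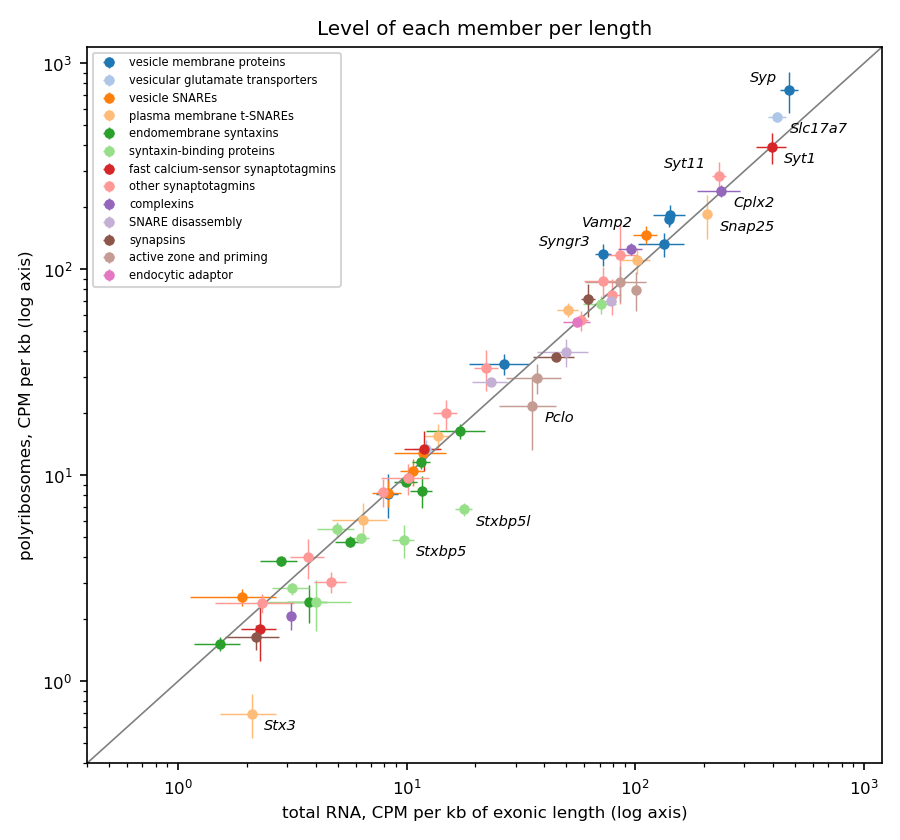
Mean level of each of the 64 members tested in total RNA (x axis) and on polyribosomes (y axis), in CPM per kb of exonic length on log axes, coloured by role. Bars are the SD of 3 libraries and the line marks equal levels. Stx3, Stxbp5l and Stxbp5 lie clearly below the line and Syp lies at the top.

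Closely related members can replace each other at the synapse, so the ratio of the paralogs was compared within each library for 10 pairs. The log2 ratio was separate between the groups for 5 of them. Of all genes tested singly, 17.4% were separate and higher on polyribosomes and 18.9% separate and lower. Such a share was not computed for other pairs of genes. Napa to Napb was -1.28 ± 0.255 on polyribosomes and -1.88 ± 0.298 in total RNA (mean ± SD, n = 3), a difference of 0.60. The difference was 0.35 for Cplx1 to Cplx2, 0.37 for Sv2a to Sv2b, 0.38 for Syngr3 to Syngr1 and 0.26 for Slc17a7 to Slc17a6. Each of the 5 had p = 0.1 in an exact two-sided permutation test, which is the smallest that 3 against 3 libraries can give, and 0.2 after Benjamini-Hochberg adjustment over the 10 pairs. In the other 5 pairs, among them Vamp2 to Vamp1, Syt1 to Syt2, Syn1 to Syn2 and Bsn to Pclo, the groups overlapped, with p between 0.2 and 0.5 in the same exact test.

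The members that were higher and lower with the block differed in the length and base composition of their transcripts. The 6 higher ones had 1.97 to 2.99 kb of exonic sequence and a GC content of 53.2 to 59.2%. The 6 lower ones had 4.52 to 22.1 kb and 43.0 to 50.7% GC, so that the ranges of the higher and lower genes were separate for both measures. Over the 64 members the rank correlation of the log2 difference was -0.51 with length and 0.48 with GC content, and over 12238 genes it was -0.37 and 0.53. These are correlations across genes of the same 6 libraries. The plot of differences against length and GC content shows the members within the cloud of all genes.

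**Figure D4:**
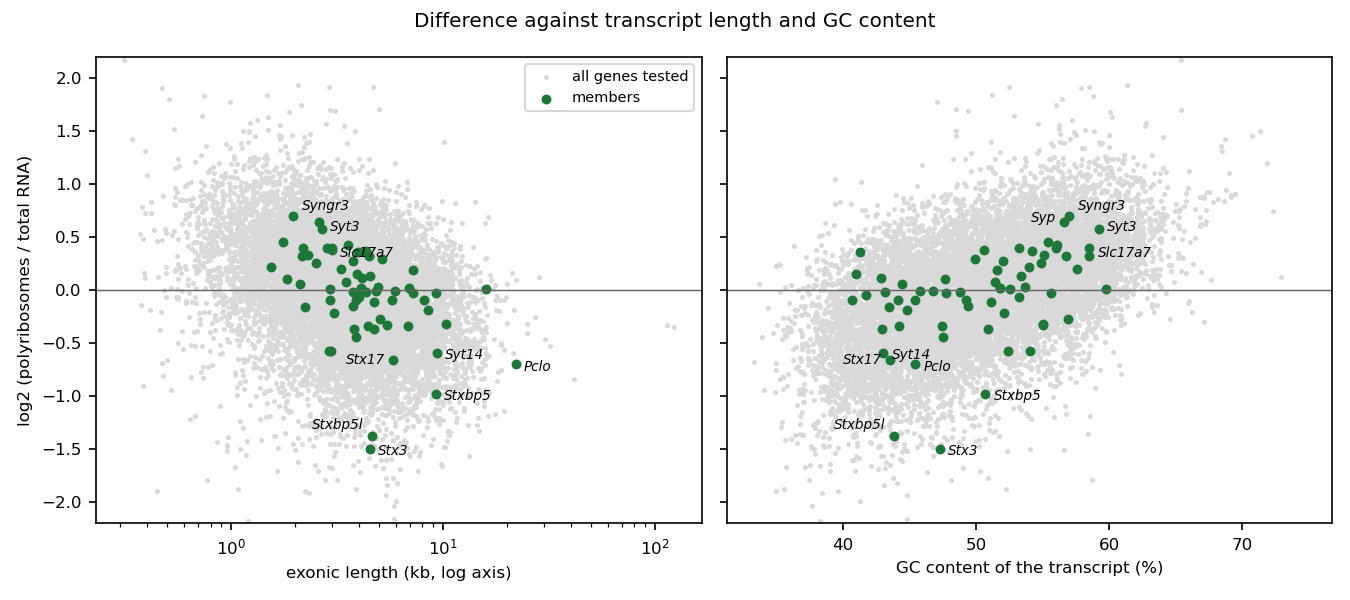
Log2 difference between polyribosomes and total RNA (y axis) against exonic length in kb (left, log axis) and GC content of the transcript in percent (right). Green points are the 64 members tested, some of them named, and grey points are all genes tested within the range drawn. Short, GC-rich members such as Syngr3 and Syt3 lie high, and long or GC-poor ones such as Pclo and Syt14 lie low.

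When an offset for GC content and length was added to the fit with the block, the 3 lower genes still passed the threshold. Stxbp5l had a difference of -1.08, Stxbp5 of -0.78 and Stx3 of -1.39, with adjusted p-values by edgeR of 2.28e-11, 3.20e-07 and 0.000121. None of the 6 higher genes of the block passed: Syngr3 was at 0.33 with an adjusted p of 0.0285 and Syp at 0.34 with 0.0338 by edgeR. Syt3 was at 0.16, Cplx1 at 0.10 and Slc17a7 at 0.08, with adjusted p-values by edgeR of 0.349, 0.549 and 0.684. Pclo fell short at -0.25, as did Stx17 at -0.28 and Syt14 at -0.13. In that fit Synpr, a synaptophysin relative of hippocampal mossy fibers, was higher by 0.69 with an adjusted p of 8.86e-06, Slc17a6 higher by 0.43 with 0.00502, and Syn2 lower by 0.42 with 0.00527. The 2 higher and 4 lower calls stood beside a background of 8.27% and 6.74% of all genes. Some paralogs whose ratio was separate between the groups lay close together in the same fit. Napa and Napb were at 0.03 and -0.05, and Cplx1 and Cplx2 at 0.10 and 0.01. Slc17a7, at 0.08, was below Slc17a6.

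Other genes of the vesicle cycle were examined beside the members. From a list of 67 further genes of priming, SNARE regulation, endocytosis and vesicle transport, 65 were tested, of which 0 were higher and 3 lower by edgeR. At an unadjusted p of 0.05, 9 were higher and 14 lower, beside 15.4% and 17.1% of all genes. DESeq2 called 1 higher and 6 lower, beside 1.92% and 2.22% of 16736 genes taken without the expression filter. The 321 higher and 372 lower genes behind these shares were all among the 12255 that passed the filter. The shares therefore understate the background for these 65 genes, which passed it too. The median difference of the 65 genes was -0.07, but it differed between the parts of the list. It was 0.31 for the 10 vesicle membrane and transport genes tested, of which 9 were above 0. For the 30 genes of SNARE regulation and priming it was -0.17, with 7 above 0. For the 25 endocytosis genes it was -0.06, with 11 above 0. Of all genes tested, 50.1% were above 0. Unc13b, a priming factor related to Unc13a, was at 22.7 ± 3.63 CPM on polyribosomes and at 51.4 ± 7.16 CPM in total RNA (mean ± SD, n = 3), a difference of -1.16 with an adjusted p of 0.00308 by edgeR. Dnm3, a dynamin that cuts vesicles from the membrane, differed by -0.90 with an adjusted p of 0.00349 by edgeR. Ppfia2, the active zone scaffold liprin-alpha-2, differed by -0.91 with an adjusted p of 0.00380. These 3 calls depended on single libraries, since Unc13b passed in 3 and Dnm3 and Ppfia2 in 2 of the 6 fits that each left out 1 library. With the block, 9 of the 65 were higher and 12 lower, which is 13.8% and 18.5% beside 11.8% and 13.2% of all genes. With the GC and length offset added, 4 were higher and 8 lower, beside 8.27% and 6.74%.

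Markers of other cells were summed in each library. In edgeR's test without the block, 1 of 10 oligodendrocyte markers was higher, and 0 of the 11 astrocyte, 10 microglial, 8 endothelial, 7 excitatory and 8 inhibitory markers were called. At an unadjusted p of 0.05, 7 astrocyte, 4 oligodendrocyte and 3 microglial markers were higher, and with the block 7, 4 and 4. For endothelial markers 2 were higher at the unadjusted p and 1 with the block. In both cases 2 excitatory markers were higher and 1 lower, and 5 inhibitory markers were higher and 2 lower. Of all genes tested, 0.710% were higher and 2.36% lower in edgeR's test without the block. The shares were 15.4% and 17.1% at the unadjusted p, and 11.8% and 13.2% with the block. With the GC and length offset added to the block, 10 astrocyte, 3 oligodendrocyte and 3 microglial markers were higher. The same fit called 0 endothelial, 1 excitatory and 5 inhibitory markers higher, and none of the markers lower. Of all genes tested, it called 8.27% higher and 6.74% lower. The summed level of 11 astrocyte genes was 45929 to 50057 CPM on polyribosomes and 35484 to 41137 CPM in total RNA, and all 11 had positive differences. For 10 oligodendrocyte genes the ranges were 11348 to 15473 and 8196 to 11620 CPM, with 9 positive, and for 10 microglial genes 1033 to 1203 and 666 to 942 CPM, with 10 positive. The 8 endothelial genes summed to 347 to 606 and 371 to 386 CPM. For 7 markers of excitatory neurons, Slc17a7 among them, the ranges were 5710 to 7602 and 5043 to 6737 CPM, and for 8 of inhibitory neurons 1683 to 2374 and 1322 to 1478 CPM. None of these markers was at 0 in all libraries. The members summed to 17380 to 20107 CPM on polyribosomes and to 16898 to 18775 CPM in total RNA. The part of other cells in the members' differences was not tested.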

How the data were processed

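The authors depleted ribosomal RNA, made strand-specific libraries, mapped reads with STAR to GRCm38 and assigned them to genes of Gencode vM6 (basic set). The deposited values are raw counts per protein-coding gene, without normalization. The table also holds the authors' own DESeq2 comparison (normalized mean, log2 fold change, standard error, statistic and p-values), which was not used.

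Counts were analysed with edgeR 4.0.16 in R 4.3.3 (TMM, filterByExpr, quasi-likelihood test, group as the only term, Benjamini-Hochberg adjustment over 12255 genes, threshold 0.01). DESeq2 1.42.0 was an alternative. Exonic lengths, GC content and start codons came from Gencode vM21 on GRCm38, which covered 99.9% of the genes tested. The gene's transcript with the best APPRIS tag was used. The offset for GC content and length used splines with 4 degrees of freedom for each library. Replicate numbers come from the sample titles. Same-numbered libraries share a prefix in the column names (its meaning is not stated), the methods draw both groups as aliquots of a preparation, and across genes the residuals of such a pair correlated at 0.37, 0.26 and 0.38 (other combinations -0.35 to 0.11). Equal numbers were therefore treated as pairs.

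On simulated counts of 12145 genes for the comparison of polyribosomes with total RNA, the test recovered 59.2% of genes changed by 1 on the log2 scale and 99% of those changed by 2, with 2 false calls of 11951. The simulated libraries were not paired and held no trend with GC content or length, so these rates need not hold for the real counts. Replicates differed by more than sampling noise, and total RNA replicate 3 was the shallowest. Some members count in the totals but are not reported here by name. Values were given in full for those past the threshold with or without the block, for the most abundant reported member of each role, and for the extremes. Of the other genes, those past the threshold were named. The members and lists were chosen with earlier results of these data known.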

Additional observations from a re-analysis of the deposited data

How the results depend on the processing

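The 3 lower members kept their direction in all 12 alternatives, and relative log expression size factors or library totals alone left 0 members higher and 3 lower. The number of higher members was 1 without the expression filter, 6 with the replicate block, 2 with the replicate block and the GC and length offset, and 2 with DESeq2. The number of lower members was 6 with the replicate block. The block changed no call of the 3 lower members. Leaving out each library in turn gave 0 higher members and 1 to 3 lower ones: Stxbp5l passed in all 6 fits, Stxbp5 and Stx3 only without polyribosome replicate 3. The median of the members was -0.117 with library totals only, a scaling that moved the median of all genes to -0.106, it was 0.0783 with the replicate block and the GC and length offset, and it ranged from -0.067 to 0.0457 when single libraries were left out. Of the 64 members, 26 that were never called in the settings concerned changed sign in at least 1 alternative, among them Syt1, Sv2b and Bsn. Beyond what each setting changes by construction, the cause was not tested. Depth limits the genes with few counts, such as Stx3 with 13 counts in total RNA replicate 3.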
